A study of Mus musculus with 10 samples.

Results

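Lhx2, Emx2, Pax6, Sox2, Sox4, Sox11, Bcl11a, Bcl11b and Tbr1 are transcription factors that build the embryonic cortex, and their RNA and ribosome footprints were followed in cortical cultures depolarized with KCl. The 9 genes were taken by name, with all of their 24 transcripts among the 22534 transcripts listed in the count files. They were chosen because earlier results of these data showed how they differed between KCl-treated and untreated cultures, so that all KCl differences of the 9 genes given here, in RNAseq, in RF and in translation efficiency, are a description and no test of them. Cortices of newborn (P0) FVB mouse pups of both sexes had been dissociated and grown for 7 days as mixed cultures of neurons and glia. Untreated cultures 1, 2 and 3 were compared with cultures 4 and 5, which were held in 55 mM KCl for 3 h, and all 5 cultures were given cycloheximide, which stalls ribosomes, for 7 min before lysis. From each culture came 1 RNAseq library and 1 library of ribosome-protected fragments (ribosome footprinting, RF). The study had removed a further KCl replicate for its small library, and the sources used here do not say which pups went into which culture.

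In the developing forebrain, Lhx2, Emx2 and Pax6 set the identity of the cortical sheet and of the progenitors that line the ventricle. Sox2 keeps neural progenitors in their undifferentiated state, and the related SoxC factors Sox4 and Sox11 act later, as new neurons begin to express neuronal genes. Bcl11a, Bcl11b (Ctip2) and Tbr1 are markers and determinants of cortical projection neurons of different layers, and several of the 9 genes stay on in glia or mature neurons after birth.

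Of the 24 transcripts, 18 from 6 genes were measured, meaning that RNAseq and CDS RF both reached 10 RPKM (reads per kilobase and per 1000000 reads of the library) within a culture, and did so for 2 or more cultures, a filter passed by 7258 transcripts of 4365 genes in the whole table. They were 9 transcripts of Pax6, 4 of Bcl11a, 2 of Lhx2 and 1 each of Emx2, Sox2 and Sox4. Emx2 and the Pax6 transcript ENSMUST00000111088 passed in both KCl cultures and in 0 of the 3 untreated cultures. Lhx2 passed in all untreated cultures and in 1 KCl culture. The transcripts of Sox11, Bcl11b and Tbr1 lay below the filter in every culture, because their RNAseq values were under 10 RPKM, and their differences were taken from a fit to 22018 transcripts with no filter on level. Each gene is described by its transcript with the most RNAseq reads, which collected between 26 and 949 reads per RNAseq library. Libraries held between 3056286 and 3629959 reads for RNAseq and between 1463654 and 7719915 for RF. Values below are RPKM scaled for library composition (TMM), over the whole transcript for RNAseq and over the CDS for RF, and translation efficiency (TE) is the ratio of RF to RNAseq in the same culture.

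The 9 genes covered a wide span of RNA levels in untreated cultures. Sox4 was highest at 48.6 ± 4.92 normalized RPKM (SD, n = 3), followed by Sox2 at 46.7 ± 3.62 and Lhx2 at 39.1 ± 3.95, and the values of neighbours in this order overlapped between cultures. Bcl11a (15.2 ± 1.26) and Pax6 (14.1 ± 1.64) overlapped each other and lay below all values of Lhx2. Emx2 followed at 9.09 ± 0.397, then Bcl11b at 3.83 ± 0.728, Tbr1 at 2.296 ± 0.390 and Sox11 at 1.87 ± 0.528. The last 2 of these overlapped.

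The order of ribosome footprints was different. Sox2 led with 138 ± 6.31 normalized RPKM of CDS footprints (SD, n = 3), followed by Sox4 with 108 ± 18.3 and Sox11 with 79.9 ± 5.37, and the values of these 3 genes did not overlap. Pax6 had 36.0 ± 4.71, Bcl11a 24.3 ± 1.85, Lhx2 17.5 ± 1.21, Emx2 10.8 ± 0.808, Bcl11b 9.43 ± 0.992 and Tbr1 6.30 ± 1.60, and of these neighbours the values overlapped only for Emx2 and Bcl11b.

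**Figure D1:**
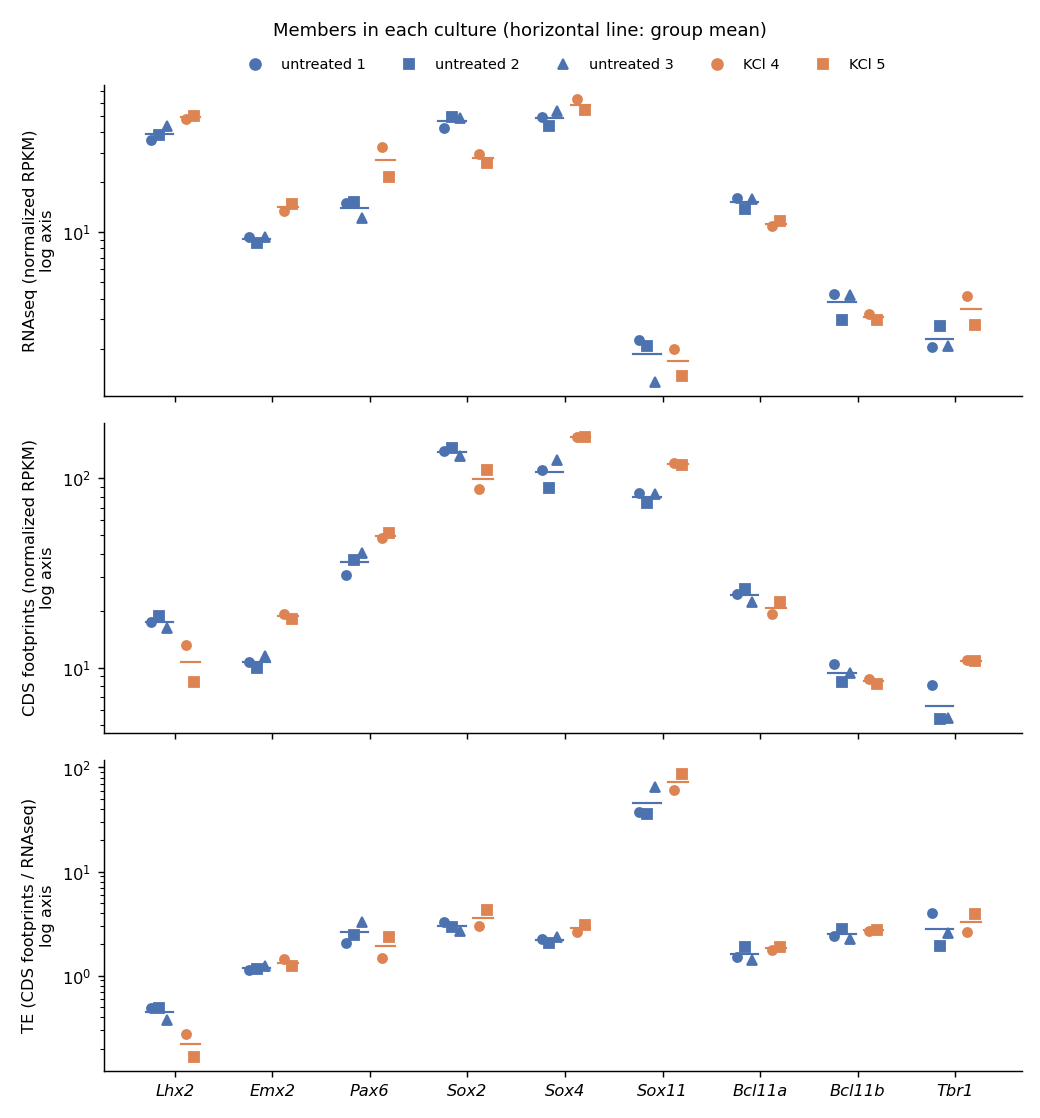
RNAseq and CDS footprints (normalized RPKM) and TE of the 9 genes on log axes, 1 point per culture, with blue for untreated and orange for KCl and a line at each group's mean. Each gene is shown by its transcript with the most RNAseq reads. Lhx2 has the lowest TE and Sox11 the highest. Among the transcripts shown, only that of Lhx2 has lower CDS footprints and higher RNA with KCl. The other Bcl11a transcripts, not shown, also have higher mean RNA and lower mean footprints.

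The differing order of the assays is summed up in TE. Among measured genes the median TE in untreated cultures was 1.83. Lhx2 stood at 0.451 ± 0.0650, above 2.36% of the measured genes, and Emx2 at 1.18 ± 0.0566, above 24.4%. Bcl11a (1.61 ± 0.248), Sox4 (2.22 ± 0.157), Bcl11b (2.49 ± 0.294), Pax6 (2.61 ± 0.624), Tbr1 (2.83 ± 1.03) and Sox2 (2.97 ± 0.292) lay in the middle of the range, and from Sox4 to Sox2 the neighbours in this order overlapped. Sox11 had a TE of 45.8 ± 16.7, beyond the 25.0 of the highest measured gene. The measured set requires 10 RPKM in RNAseq, so genes with as little RNA as Sox11 are kept out of it by rule. Sox11 was thus not ranked among genes of like RNA level, and the same limit holds for Bcl11b and Tbr1. The Sox11 ratio rests on 33 to 62 RNAseq reads per library, of which 6 to 9 lay on the CDS, against 133 to 732 CDS footprints, and on a transcript model of 8311 nt that is mostly 3′UTR.

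KCl was followed by calls in both directions. A call means an adjusted p under 0.05 in edgeR's quasi-likelihood test. In RNAseq, 4 of the 6 measured genes were called, Emx2 and Pax6 higher and Sox2 and Bcl11a lower, where 33.2% of all measured transcripts were called (17.5% higher and 15.7% lower). In RF, 5 of the 6 were called, Emx2, Pax6 and Sox4 higher and Lhx2 and Sox2 lower, beside 41.0% of all transcripts (21.2% higher and 19.8% lower). In TE only Lhx2 was called, lower, beside 5.73% (1.63% higher and 4.11% lower). In the unfiltered fit Sox11 and Tbr1 were called higher in RF, where 23.9% of transcripts were called and 12.4% were called higher, and none of Sox11, Bcl11b and Tbr1 was called in RNAseq (18.7% of transcripts) or in TE (1.79% of transcripts). In each of RNAseq and TE, edgeR gave 1 of these 3 genes an unadjusted p under 0.05 and DESeq2 called 0, without an adjusted p for 2 of them in TE. The 2 KCl cultures did not overlap the 3 untreated ones in 54.9% of measured transcripts in RNAseq, 61.4% in RF and 34.2% in TE. Since the genes were chosen on these contrasts, nothing is read from these counts.

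**Figure D2:**
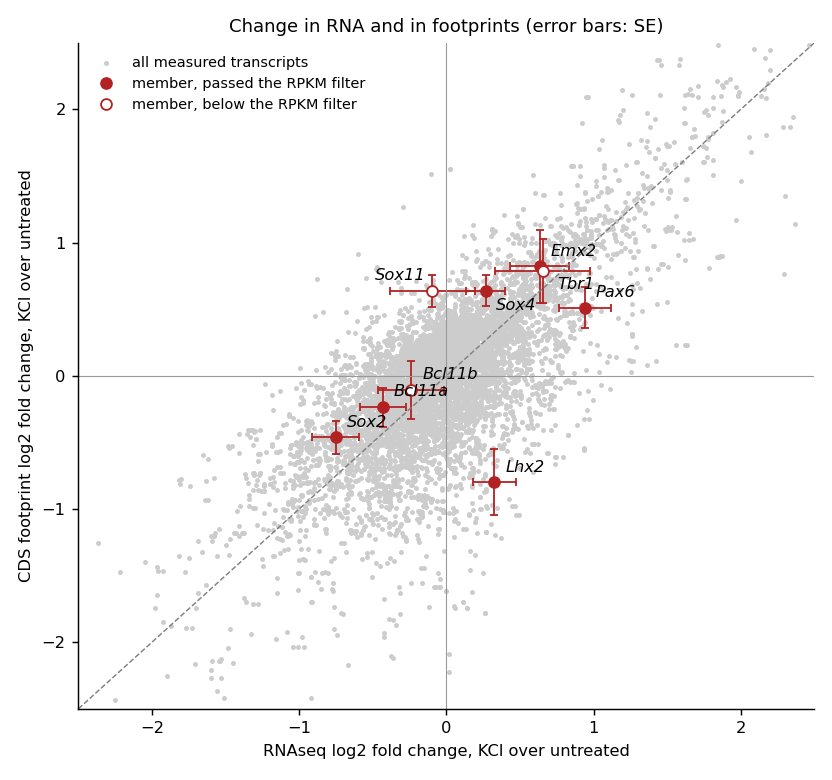
Log2 fold change (KCl over untreated) of RNAseq on the x axis against that of CDS footprints on the y axis, with grey points for 7258 measured transcripts (59 lie outside the axes), red points for the 9 genes, open where they were below the filter, and bars for the SE. Lhx2 lies to the lower right, Sox4 and Sox11 lie above the dashed line of equal change, and Pax6 lies below it.

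Lhx2, a LIM-homeodomain factor that specifies the cortical field, lies on chromosome 2 (GRCm38, 38350759 to 38369733, plus strand). Its RNAseq values were 35.6, 38.5 and 43.4 normalized RPKM in untreated cultures 1 to 3 and 47.9 and 50.2 with KCl. Its CDS footprints were 17.4, 18.7 and 16.3 in untreated cultures and 13.2 and 8.36 with KCl. Both KCl cultures were thus above the untreated ones in RNA and below them in footprints. TE was 0.490, 0.487 and 0.376 untreated against 0.275 and 0.167 with KCl. The log2 fold change was 0.33 ± 0.14 (SE) in RNAseq, which was not called, -0.80 ± 0.25 in RF and -1.15 ± 0.29 in TE, both called. The second Lhx2 transcript, which starts upstream at 38339281, shares most CDS reads with the first and fell by 0.99 ± 0.26 in RF and 1.30 ± 0.32 in TE. Culture 5 carried much of this difference. Without culture 5 the first transcript's log2 fold change was -0.43 in RF and -0.74 in TE, and neither was called. The RF call was also lost with DESeq2 (-0.77).

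The lower count of Lhx2 footprints on the CDS did not extend to the 5′UTR. On the 1015 nt of its annotated 5′UTR there were 132, 83 and 26 footprints in untreated cultures and 30 and 78 with KCl, against 157, 144 and 27, and 23 and 28, on the CDS. The 5′UTR share of 5′UTR and CDS footprints was 45.7% (95% Wilson interval 40.0 to 51.4), 36.6% (30.6 to 43.0) and 49.1% (36.1 to 62.1) in untreated cultures. With KCl it was 56.6% (43.3 to 69.0) in culture 4 and 73.6% (64.5 to 81.0) in culture 5. In CPM (reads per 1000000 CDS footprints of the scaled library), 5′UTR footprints were 16.7 ± 3.15 untreated (SD, n = 3) and 24.7 ± 5.27 with KCl (SD, n = 2). Footprints of both regions counted together gave a log2 fold change of -0.023 ± 0.16 in RF and -0.38 ± 0.24 in TE, and neither was called. The intervals cover counting error only, and how the counting assigned footprints that span the start codon is not given in the sources used here.

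Both KCl cultures lay above all untreated cultures in this share for Lhx2, as they did for 13.7% of the 6535 measured transcripts with at least 20 such footprints in every library. A difference in means as large as the 21.3 percentage points of Lhx2 was found in 0.627% of those transcripts. Lhx2 was chosen with its KCl difference known, so this rank is no test of it. The mean with KCl was raised most by the 73.6% of culture 5, and the interval of culture 4 overlapped those of untreated cultures 1 and 3. The RNAseq libraries held 4 reads on the Lhx2 5′UTR in untreated culture 1 and 0 in the other 4 cultures, so that the RNA level of this region was not measured. The RNAseq reads of the whole table were also thin at the 5′ end, with a median read density on 5′UTRs of 0.106 of that of the transcript.

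**Figure D3:**
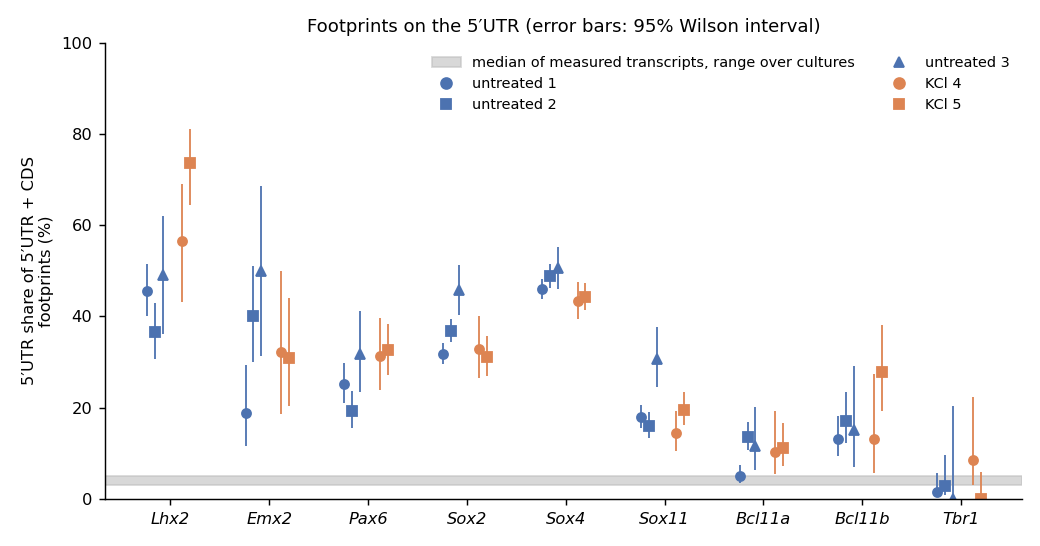
Share of footprints that lay on the 5′UTR, in percent of 5′UTR and CDS footprints, for each of the 9 genes and 5 cultures with 95% Wilson intervals, and a grey band for the median of measured transcripts (3.12% to 4.95% over cultures). The KCl points of Lhx2 lie above its untreated points, those of Sox4 lie a little below, and the other 7 genes overlap between groups.

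The sequence around the start codons is shown because footprints upstream of the CDS were so many in several of these genes. The Lhx2 5′UTR holds 5 upstream ATG codons, a number reached by 5.29% of measured genes, and all 5 open reading frames end before the CDS. Its length of 1015 nt was reached by 1.17% of genes, and the number of ATGs was not adjusted for length. Their positions were 773, 752, 323, 205 and 92 nt before the CDS start and their lengths 118, 111, 4, 1 and 5 codons with the ATG and without the stop. Each line below has 12 bases, the ATG in capitals and 6 bases, from 5′ to 3′, taken from the GENCODE M21 transcripts of GRCm38, except that the Sox2 line was read from the RefSeq genome sequence of GRCm38.
Lhx2 CDS start: ggtcccgccgcgATGctgttc
Lhx2 upstream, 773 nt before the CDS: ggcgggcggccaATGgcacgg
Lhx2 upstream, 752 nt before the CDS: cggcaggacgtgATGtcaggc
Lhx2 upstream, 323 nt before the CDS: acccagctagcgATGcctgcg
Lhx2 upstream, 205 nt before the CDS: aggcgccccgcgATGtagctg
Lhx2 upstream, 92 nt before the CDS: gccgcggtggcgATGcactgg
Sox4 CDS start: caagccggggccATGgtacaa
Sox4 upstream, 361 nt before the CDS: gcgctagagacgATGtcgctt
Sox11 CDS start: ccgccgcggaccATGgtgcag
Sox2 CDS start: cccagcgcccgcATGtataac

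A purine 3 bases before the ATG together with a G right after it, the strongest form of the Kozak context, was present at the CDS start of Sox4 and Sox11 and absent from the other 7 genes. It was present in 46.4% of 4339 measured genes. The Lhx2 CDS start has the purine and a C after the ATG, and 4 of its 5 upstream ATGs also have the purine. Sox11 has no upstream ATG in its 166 nt, Emx2 and Sox4 have 3 each, Bcl11a has 4, Bcl11b and Tbr1 have 2 each, and Pax6 has 7. At least 1 was present in 47.5% of 4348 measured genes. These are matches in the annotated sequence, and which of them ribosomes used was not measured.

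Emx2, a homeodomain factor of the caudal and medial cortex, lies on chromosome 19 (59458372 to 59465357, plus strand). Its RNAseq values were 9.34, 8.64 and 9.31 normalized RPKM in untreated cultures and 13.4 and 14.8 with KCl. Its CDS footprints were 10.7, 9.996 and 11.6 untreated and 19.3 and 18.2 with KCl. The groups did not overlap in either assay. The log2 fold change was 0.63 ± 0.20 in RNAseq and 0.82 ± 0.27 in RF, both called, and 0.17 ± 0.36 in TE, not called. TE was 1.14, 1.16 and 1.25 untreated and 1.44 and 1.23 with KCl, and the groups overlapped. These values rest on 83 to 152 RNAseq reads and 12 to 60 CDS footprints per library, the RNAseq call was lost without culture 5, and the RF call was lost without culture 4, without culture 5 and with DESeq2. A gene on the opposite strand, Emx2os, overlaps 31.3% of the Emx2 5′UTR and no CDS or 3′UTR base. The RNAseq kit makes double-stranded cDNA and does not mark strand, so reads of both genes cannot be told apart there.

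Pax6, a paired-box factor of cortical radial glia, had 9 measured transcripts on chromosome 2 that share most reads. The transcript with the most reads (105675191 to 105697242, plus strand, 12 exons) had RNAseq values of 14.9, 15.1 and 12.2 normalized RPKM untreated and 32.6 and 21.6 with KCl. Its CDS footprints were 30.9, 37.1 and 40.1 untreated and 48.5 and 51.2 with KCl. RNA was therefore highest in culture 4 and the footprints of both KCl cultures were close together. The log2 fold change was 0.94 ± 0.18 in RNAseq and 0.51 ± 0.15 in RF, both called, and -0.39 ± 0.25 in TE, not called. Leaving out culture 4 gave 0.62 in RNAseq and leaving out culture 5 gave 1.21, and both were called. The RF call was lost without culture 1 and without culture 5.

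The other 8 Pax6 transcripts shared most of their reads with it. All 8 were called higher in RNAseq, with log2 fold changes from 0.85 to 1.00, none was called in TE by edgeR or DESeq2 (0 at an unadjusted p under 0.05 in edgeR), and 7 were called higher in RF. The exception in RF was the transcript that starts at 105671860 (ENSMUST00000111088), with a CDS of 765 nt and a log2 fold change of 0.37 ± 0.18. This transcript passed the filter only through the KCl cultures, and the 0.85 in RNAseq is its value. Since the 8 share reads, their calls do not add to that of the first transcript. By region, Pax6 RNAseq reads on the 3′UTR were 71, 47 and 60 untreated and 165 and 104 with KCl, and on the CDS 55, 64 and 34 against 96 and 79. Footprints on the 5′UTR were 97, 71 and 32 untreated and 40 and 86 with KCl, and their share of 25.1%, 19.3% and 31.7% untreated overlapped the 31.3% and 32.6% with KCl.

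Sox2, the SoxB1 factor of neural stem and progenitor cells, is a single-exon gene on chromosome 3 (34650405 to 34652461, plus strand). Its RNAseq values were 42.5, 49.0 and 48.6 normalized RPKM untreated and 29.4 and 26.1 with KCl. Its CDS footprints were 140, 144 and 131 untreated and 87.5 and 111 with KCl. All KCl values lay below all untreated values in both assays. The log2 fold change was -0.75 ± 0.16 in RNAseq and -0.46 ± 0.12 in RF, both called, and 0.28 ± 0.22 in TE, not called. The RNAseq call was kept without each culture in turn (-0.84 to -0.67), and the RF call was lost without culture 4 (-0.33).

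Sox2 also had many footprints counted on its 5′UTR, 462, 507 and 144 in untreated cultures and 59 and 132 with KCl. In CPM this was 83.1 ± 21.9 untreated (SD, n = 3) and 44.7 ± 4.85 with KCl (SD, n = 2), a ratio of 0.538, beside 0.718 for its CDS. The share of footprints on the 5′UTR was 31.8%, 36.8% and 45.7% untreated and 33.0% and 31.1% with KCl, so the groups overlapped. The GENCODE model gives this 5′UTR only 11 nt, which is shorter than a footprint. Under that model these footprints would also reach into the CDS, and how footprints that span the start codon were assigned is not given. The RefSeq model of GRCm38 starts 410 nt further upstream, with a 5′UTR of 421 nt and 1 upstream ATG at its position 3. The model that the counting used is not given beyond Ensembl release 75.

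Sox4 and Sox11, the SoxC factors of immature neurons, are single-exon genes on chromosomes 13 (28948919 to 28953713, minus strand) and 12 (27334264 to 27342574, minus strand). The CDS footprints of Sox4 were 111, 88.9 and 125 normalized RPKM untreated and 165 and 165 with KCl. Those of Sox11 were 83.5, 73.7 and 82.5 untreated and 120 and 118 with KCl. In both genes the KCl cultures were close to each other and above every untreated culture. The log2 fold change in RF was 0.64 ± 0.12 for Sox4 and 0.64 ± 0.12 for Sox11, and both calls were kept under all alternatives run.

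The RNA of both genes was not called. The RNAseq values of Sox4 were 49.1, 43.4 and 53.2 normalized RPKM untreated and 62.9 and 53.9 with KCl (log2 fold change 0.27 ± 0.13). Those of Sox11 were 2.26, 2.08 and 1.27 untreated and 1.99 and 1.37 with KCl (-0.10 ± 0.29), and here the groups overlapped. Leaving out culture 1 or culture 5 turned the direction of the Sox11 RNAseq value (0.039 and 0.15). TE was 2.25, 2.05 and 2.36 untreated and 2.61 and 3.07 with KCl for Sox4, with a log2 fold change of 0.36 ± 0.18. For Sox11 it was 37.0, 35.4 and 65.1 untreated and 60.1 and 86.0 with KCl, with a log2 fold change of 0.75 ± 0.29. Neither TE difference was called.

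Nearly all Sox4 RNAseq reads, 86.4% to 93.9% per library, lay on its 3′UTR, which makes up 58.0% of the transcript. They were 686, 593 and 691 reads untreated and 891 and 815 with KCl. On the CDS there were 69, 75 and 83 reads untreated and 45 and 72 with KCl. In CPM the CDS had 20.9, 22.8 and 26.5 untreated and 14.3 and 20.4 with KCl, and the 3′UTR 208, 180 and 221 untreated and 283 and 231 with KCl. Both KCl cultures thus lay below all untreated cultures on the CDS, with a ratio of means of 0.743 and a margin of 20.4 against 20.9 CPM. They lay above them on the 3′UTR, with a ratio of 1.27. The whole RNAseq libraries shifted the same way. The CDS held 42.6%, 42.3% and 41.0% of all reads untreated and 39.3% and 40.6% with KCl. The 3′UTR held 49.9%, 49.9% and 51.2% untreated and 53.3% and 51.8% with KCl. How many transcripts separate in this way by region was not counted. A long noncoding gene on the opposite strand, Gm26735, overlaps 94.1% of the Sox4 3′UTR and no base of its CDS or 5′UTR, and its reads cannot be told apart from those of Sox4 in these libraries. The CDS footprints do not touch that overlap.

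The Sox4 5′UTR carried almost as many footprints as its CDS. There were 922, 707 and 231 on the 692 nt of the 5′UTR in untreated cultures and 239 and 477 with KCl, beside 1081, 741 and 225, and 311 and 600, on the CDS. The share on the 5′UTR was 46.0% (43.9 to 48.2), 48.8% (46.3 to 51.4) and 50.7% (46.1 to 55.2) untreated and 43.5% (39.4 to 47.6) and 44.3% (41.3 to 47.3) with KCl. An untreated mean share at least this high was found in 1.65% of the 6535 transcripts. Both KCl cultures lay below all untreated cultures, as for 8.65% of those transcripts. Per nucleotide, the 5′UTR held 1.47 to 1.96 times the footprints of the CDS over the 5 libraries. Sox11 had 160, 105 and 59 footprints on its 5′UTR untreated and 34 and 93 with KCl, a share of 14.3% to 30.7%, with no separation of the groups.

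Bcl11a, a zinc-finger factor of cortical projection neurons and interneurons, lies on chromosome 11, and its transcripts differ at the 3′ end. The transcript with the most reads (24078173 to 24168429, plus strand, 4 exons) ends in its last exon with a 3′UTR of 3263 nt. Its RNAseq values were 16.1, 13.8 and 15.8 normalized RPKM untreated and 10.9 and 11.6 with KCl, and the log2 fold change of -0.43 ± 0.16 was called. The 3 other transcripts have 5 exons, the last of them further downstream, and log2 fold changes of 0.32 ± 0.17, 0.40 ± 0.18 and 0.45 ± 0.19, which were not called. The direction of the RNA difference thus depended on the transcript. The call of the 4-exon transcript was lost without culture 3, 4 or 5, with edgeR's filterByExpr and with no filter.

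The reads on the alternative 3′UTRs show where the transcripts parted. The 3′UTR of the 4-exon transcript had 142, 142 and 168 RNAseq reads in untreated cultures and 61 and 76 with KCl. The 3′UTR of the 5-exon transcript that ends at 24173194 had 45, 28 and 36 untreated and 74 and 63 with KCl. Of the reads on these 2 regions, 24.1% (18.5 to 30.7), 16.5% (11.6 to 22.8) and 17.6% (13.0 to 23.5) lay on the distal one in untreated cultures, and 54.8% (46.4 to 63.0) and 45.3% (37.3 to 53.6) with KCl. The KCl intervals lay above all untreated intervals, but these intervals cover counting error only and not the spread between cultures. How many other genes show such a separation was not counted. On the CDS of the 4-exon transcript, which shares reads with the others, there were 148, 113 and 110 reads untreated and 125 and 155 with KCl, with the groups overlapping.

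**Figure D4:**
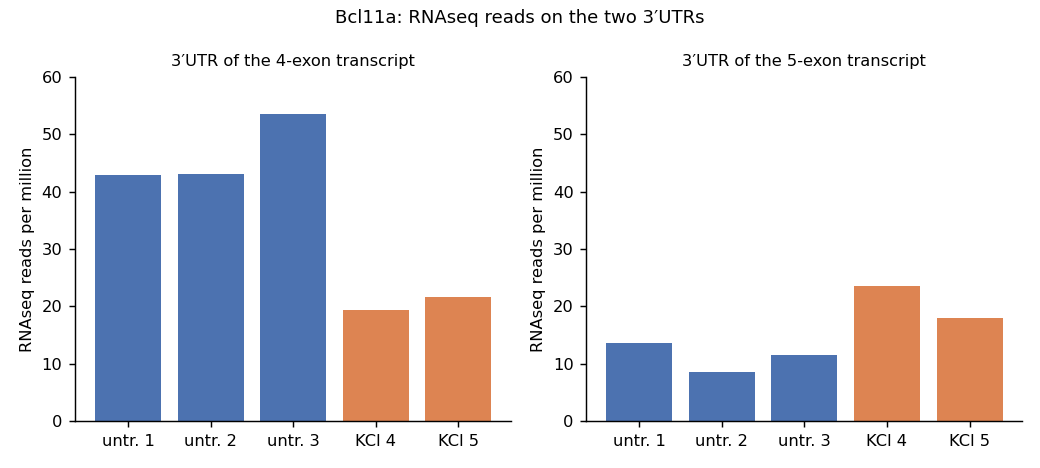
RNAseq CPM (reads per 1000000 of the scaled library) on the 3′UTR of the 4-exon Bcl11a transcript and on that of the 5-exon transcript, 1 bar per culture, blue for untreated and orange for KCl. The 4-exon 3′UTR is lower in both KCl cultures and the 5-exon 3′UTR is higher.

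Footprints on the Bcl11a CDS were 24.6, 26.0 and 22.3 normalized RPKM untreated and 19.3 and 22.1 with KCl. The log2 fold change in RF was -0.24 ± 0.15 for the 4-exon transcript and between -0.30 and -0.18 for the other 3, and none was called. In TE it was 0.19 ± 0.24 for the 4-exon transcript and between -0.73 and -0.50 for the other 3, again not called by edgeR or DESeq2, although 3 of the 4 TE values had an unadjusted p under 0.05 in edgeR. Since the 4 transcripts share CDS reads, their RF values are not independent.

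Bcl11b and Tbr1 mark deep-layer projection neurons, which send axons to subcortical targets and to the thalamus. Bcl11b (chromosome 12, 107910403 to 108003602, minus strand) had RNAseq values of 4.29, 2.99 and 4.21 normalized RPKM untreated and 3.21 and 2.98 with KCl. Its CDS footprints were 10.4, 8.43 and 9.44 untreated and 8.70 and 8.24 with KCl. The groups overlapped in both assays. Its log2 fold changes were -0.24 ± 0.22 in RNAseq, -0.11 ± 0.22 in RF and 0.12 ± 0.33 in TE, none of them called.

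Tbr1 (chromosome 2, 61804453 to 61814114, plus strand) had CDS footprints of 8.15, 5.35 and 5.40 normalized RPKM untreated and 10.9 and 10.9 with KCl, with a log2 fold change of 0.78 ± 0.24 that was called. Its RNAseq values were 2.05, 2.75 and 2.09 untreated and 4.16 and 2.79 with KCl, from 26 to 52 reads per library, and the log2 fold change of 0.65 ± 0.32 was not called. Both KCl cultures lay above the untreated ones in both assays, in RNAseq by a margin of 2.79 against 2.75. The RF call was lost without culture 2, 4 or 5 and with DESeq2. Tbr1 had the fewest 5′UTR footprints of the 9 genes, 2, 2 and 0 untreated and 3 and 0 with KCl.

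Some features of the sequence were shared that the choice of genes did not use. The CDS of 8 of the 9 genes had a higher GC content than the median of 53.2% over 4365 measured genes, and 5 were within the top 10% of genes, namely Sox11 (67.6%), Sox4 (66.7%), Sox2 (66.0%), Bcl11b (64.3%) and Tbr1 (60.6%). The 5′UTR was longer than the median of 178 nt in 7 of 9 genes by the GENCODE models, all but Sox11 (166 nt) and Sox2 (11 nt), and in 8 with the RefSeq model of Sox2. With that model for Sox2, its GC content was above the median of 66.4% only in Lhx2 (70.3%) and Sox11 (80.1%). Over all transcripts the 5′UTR share of footprints was higher where the 5′UTR was longer, with a median in untreated cultures of 4.996% for lengths above 100 and up to 300 nt, 11.4% up to 1000 nt and 27.4% above 1000 nt. The 43.8% of Lhx2 and the 48.5% of Sox4 (untreated means) lie above the medians of their length classes. The untreated means of Emx2, Pax6, Sox11, Bcl11a and Bcl11b do so too, as does that of Sox2 with either model. Only Tbr1, at 1.47%, lies below the median of its class.

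For each measured member, the gene with the most similar pattern over the 10 libraries was found by the Euclidean distance of centred log2 CPM among 4364 other genes. These were Sidt2 for Lhx2 (distance 0.362, beside a median of 1.25 over all genes), Rundc1 for Emx2 (0.237), Yipf5 for Pax6 (0.431), Elp3 for Sox2 (0.235), Hnrnpab for Sox4 (0.251) and Zfp36l1 for Bcl11a (0.179). Sidt2 had log2 fold changes of 0.17 in RNAseq and -0.76 in RF. No member was the nearest gene of another.

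Other factors of forebrain development were taken from 7 lists with 113 genes, of which 94 were in the files and 43 were measured. In RNAseq 13 rose and 9 fell, in RF 15 rose and 7 fell, and in TE 1 rose and 1 fell, which is 51.2%, 51.2% and 4.65% of the 43, beside 33.0%, 40.1% and 5.75% of all 4365 measured genes. The median log2 fold change over the 43 was 0.026 in RNAseq, 0.18 in RF and 0.12 in TE, beside -0.019, -0.00049 and 0.033 over all measured genes. Both TE calls were lost without culture 4, without culture 5 and with DESeq2. Without culture 5, RF called 13 of the 43 genes. Over all 4365 measured genes, 737 rose and 703 fell in RNAseq, 922 rose and 829 fell in RF, and 71 rose and 180 fell in TE. The lists were written with results of these data known and are not independent of them. Each list alone is small, and nothing is read from its counts below.

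Among the 7 measured genes of dorsal telencephalon patterning, 3 rose and 2 fell in RNAseq. Nr2f1, which patterns caudal cortex, rose from 32.7, 32.5 and 37.7 CPM to 67.7 and 72.7 in RNAseq (log2 fold change 1.04 ± 0.18), while its TE fell by 1.08 ± 0.31. Its RF was not called (0.025 ± 0.22). With Lhx2, whose RF was called lower, Nr2f1 was 1 of the 2 patterning factors here whose TE was called lower. In RF, Sp8 rose from 39.6, 30.2 and 44.2 to 75.6 and 85.4 (1.15 ± 0.16) and Meis2 fell by 0.50 ± 0.13.

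The neural progenitor and radial glia list, the group closest to Sox2, held 12 measured genes, of which 3 rose and 4 fell in RNAseq and 4 rose and 4 fell in RF. Sox9, a glial SoxE factor, fell in RNAseq from 327, 339 and 329 CPM to 140 and 155 (-1.17 ± 0.13) and in RF by 0.80 ± 0.10. The Notch effectors moved in opposite directions. Hes5 fell by 2.61 ± 0.40 in RNAseq. It was also called lower in RF, where it had 37, 34 and 9 CDS footprints untreated and 1 and 3 with KCl, a ratio of summed footprints per effective library size of 0.180 (95% exact interval 0.0480 to 0.480, for counting error only). Hes1 rose by 1.46 ± 0.30 in RNAseq and 1.56 ± 0.21 in RF.

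Of the 6 measured genes of cortical projection neuron identity, 3 rose and 1 fell in each of RNAseq and RF. Rorb, a layer 4 receptor, rose in RF from 49.9, 51.1 and 49.4 CPM to 112 and 112 (1.16 ± 0.13), and Tle4, a deep-layer corepressor, rose in RNAseq by 1.18 ± 0.18. Lmo4 fell by 0.83 ± 0.13 in RF. Of the 5 interneuron and ventral telencephalon genes, 2 rose in RNAseq and 4 in RF and none fell. Of all measured genes, 33.0% were called in RNAseq and 40.1% in RF in either direction, and 5 genes are too few to set against these shares.

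Among 7 paralogues and partners of the members, 2 rose and 1 fell in RNAseq and 1 rose and 1 fell in RF, with Smarcb1, a chromatin remodelling subunit, lower by a log2 fold change of -0.94 ± 0.17 in RNAseq. None of the 4 oligodendrocyte lineage factors was called in RNAseq, RF or TE by edgeR or DESeq2 (0 at an unadjusted p under 0.05 in edgeR). Of all measured genes, edgeR called 33.0%, 40.1% and 5.75%, and with 4 genes nothing is read from the absence of calls.

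**Figure D5:**
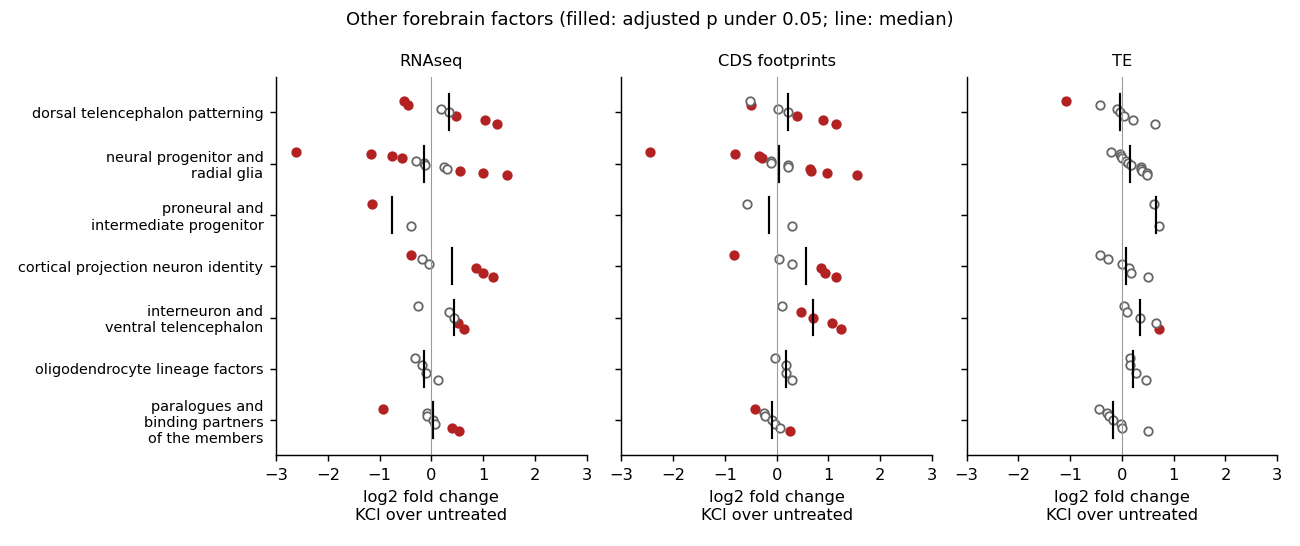
Log2 fold change (KCl over untreated) of the 43 measured genes of 7 lists in RNAseq, CDS footprints and TE, 1 point per gene, filled where the adjusted p was under 0.05, with a line at the list's median. Hes5 lies farthest to the left in RNAseq and in footprints (1 and 3 footprints in the KCl libraries), Nr2f1 is the filled point at the left in TE, and no gene of the oligodendrocyte lineage list is filled.

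These are bulk values of mixed cultures, in which fewer cells of a type and less RNA per cell cannot be told apart. The summed RNAseq level of 10 astrocyte markers, all measured, was 12225 to 12794 CPM untreated and 10159 to 10360 with KCl, and in RF 16911 to 17410 against 18340 to 18559. The 9 of 12 neuron markers in the files, of which 5 were measured, summed to 499 to 705 in RNAseq untreated and 636 to 676 with KCl, and to 430 to 654 against 653 to 714 in RF. For dividing cells, 5 of 6 markers gave 190 to 225 in RNAseq untreated and 172 to 173 with KCl, and 397 to 481 against 476 to 496 in RF. Endothelial and fibroblast markers (5 of 6) were at 414 to 501 in RNAseq untreated and 348 to 397 with KCl, and at 864 to 1165 against 526 to 643 in RF. Microglia (7 of 8) had 185 to 194 in RNAseq untreated and 152 to 173 with KCl, and 309 to 328 against 348 to 360 in RF. Oligodendrocyte lineage markers (6 of 6) had 1031 to 1184 in RNAseq untreated and 970 to 993 with KCl, and 1079 to 1206 against 1193 to 1299 in RF. No marker in the files was at 0 in RNAseq, and Pcna was at 0 in RF. The part of these shifts in the differences of Sox2, Sox4 and the other genes was not tested. Fos, which is known to respond to depolarization, rose by 1.58 ± 0.18 in RNAseq and 2.34 ± 0.12 in RF.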

How the data were processed

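The authors used Trimmomatic 0.32 for trimming and STAR 2.3.1z8 to find rRNA reads, aligned the other reads with bowtie2 2.2.2 to the mm10 transcriptome of Ensembl release 75, kept multi-mapped reads, and deposited the counts of reads per transcript region from BEDTools 2.20.1, without normalization. A read can therefore count for more than 1 isoform or gene. The letters that name the regions were assigned from read densities over annotated regions, and 1 region has no name. The study's TE omits bases next to start and stop codons, which counts per region do not allow.

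Here 22172 of 22534 transcripts (98.4%) were matched to GENCODE M21 on GRCm38 for names, lengths and sequences. RNAseq reads of all regions and RF reads of the CDS were compared by edgeR 4.0.16 (R 4.3.3, robust quasi-likelihood test, TMM per assay), adjusted by Benjamini-Hochberg over all transcripts tested. TE was tested as an assay by treatment interaction in a model with a culture block, because RNAseq and RF came from 1 lysate per culture. Deviations of same-numbered libraries correlated with r between -0.0728 and 0.0647. A standard error is the absolute log2 fold change over the square root of F, an approximation. Labels do not say that cultures came from separate litters, so p-values cover the spread between these cultures. The fits were tested on simulated data in which 200 of 7258 transcripts were changed by a log2 fold of 1.5. They recovered 100% of these in RNAseq, 99.5% in RF and 95.5% in TE. Of the calls, 3.38%, 5.24% and 8.17% were false. All simulated transcripts had the same dispersion of 0.0123, and those changed had at least 100 reads in each assay, summed over libraries. Recovery of smaller changes, and of changes in transcripts with fewer reads or a larger spread, was not measured. With 3 against 2 cultures an exact permutation test cannot go below 0.1 and was not used.

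The members, the gene lists and the rule for named genes (members by their transcript with most reads, the 4 largest rises and falls among called genes of the lists in each assay, and the nearest gene of each measured member) were chosen with earlier results of these data known. The distance used log2 of normalized CPM plus 0.5. Alternatives were library totals, TMM over all libraries, filterByExpr, no filter, DESeq2 1.42.0, 1 transcript per gene, all libraries in 1 fit, 5′UTR with CDS reads, no block, and leaving out each culture. Egr1 and Nr4a1, named by the rule as induced genes, were not measured. Values of some genes that the rule names are not reported here.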

Additional observations from a re-analysis of the deposited data

Results flagged for a closer look

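Footprints on the 3′UTR were not part of the comparisons, and 2 of the 9 genes had more there than the 3 counts that a count of 0 allows. Sox4 had 10, 9 and 5 footprints on its 3′UTR in untreated cultures 1, 2 and 3, beside 1081, 741 and 225 on its CDS, and 2 and 3 with KCl. Sox2 had 7 in untreated culture 2, with 0 and 2 in the other untreated cultures and 0 and 1 with KCl. The other 7 genes had at most 2 in any library. Of all RF reads, 0.415%, 0.428% and 0.71% lay on 3′UTRs in untreated cultures 1, 2 and 3, and 0.375% and 0.389% with KCl. Sox4 and Sox2 also had the most CDS footprints of the 9 genes in the untreated cultures.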

How the results depend on the processing

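Of 315 recomputed log2 fold changes of the 9 genes, 286 kept their direction and their side of the threshold, 21 calls were lost, 2 were gained (Lhx2 in RNAseq with filterByExpr and with no filter) and 6 turned direction, none of these called. DESeq2 gave no adjusted p for 3 further values. The cause of these changes was not tested except where a setting removes cultures or transcripts. The 6 were the RNAseq value of Sox11 without culture 1 (0.039) and culture 5 (0.15, with -0.38 to 0.15 leaving out each culture), the RF value of Bcl11b with 5′UTR reads added (0.0028) and without culture 1 (0.0064, with -0.20 to 0.0064 leaving out each culture), and the TE value of Tbr1 without culture 2 (-0.071) and culture 5 (-0.055), with -0.071 to 0.60 leaving out each culture.

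Of the 6 measured genes, RF called 3 with DESeq2, and TE called 0 with 5′UTR reads added. Leaving out 1 culture at a time gave 2 to 4 calls in RNAseq, 2 to 5 in RF and 0 to 1 in TE, each lowest without culture 5. For the other forebrain factors the ranges were 16 to 22, 13 to 24 and 0 to 4, and TE called 0 with DESeq2. Over all transcripts, 2410 were called in RNAseq, 2973 in RF and 416 in TE. With filterByExpr RNAseq called 3896 and RF 5192, with no filter 4126 and 5255, and with 1 transcript per gene 1450, 1747 and 259 in TE, as more or fewer transcripts were tested. TE called 174 with DESeq2 and 412 with no replicate block, and the block changed no call of the 9 genes. Without 1 culture the ranges were 1634 to 2614, 1700 to 3231 and 66 to 516. Library totals in place of TMM moved the median log2 fold change over all transcripts in RF from -0.0034 to -0.11 and the calls higher and lower from 1270 and 1140 to 1097 and 1483 in RNAseq and from 1538 and 1435 to 1186 and 1916 in RF.

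Depth limits Emx2, Lhx2, Bcl11b and Tbr1 most, with as few as 12, 23, 33 and 15 CDS footprints in a library, and Sox11 and Tbr1 in RNAseq, with as few as 33 and 26 reads. Hes5 had as few as 1 CDS footprint.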

Other observations

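The RNAseq reads on the unnamed region of the 4-exon Bcl11a transcript numbered 1, 2, 3, 0 and 1 in cultures 1 to 5, and the same counts stood on each of the 3 Bcl11b transcripts, while the Bcl11a transcripts with 5 exons had other counts there. The files keep reads that map to several transcripts, and whether these are the same reads was not tested.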
